A study of Mus musculus with 18 samples.

Results

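Collagen chains were followed through reprogramming of mouse embryonic fibroblasts (MEFs) to induced pluripotent stem cells (iPSCs). The members were all genes with a single-symbol probe whose symbol is Col, a number, a and a number, without Col17a1, and where a gene had several probes the one with the highest mean signal was used. That gave 43 genes of the 19938 with such a probe, and they were divided into 11 fibrillar chains, 8 basement membrane chains and 24 others. Col21a1 has no probe by that symbol. The rule picks the genes by symbol, and measured values entered it only in the choice of a probe.

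The 18 arrays hold 12 groups of mouse cells. The reprogrammed cells were MEFs from mid-gestation C57BL/6 embryos carrying ROSA-rtTA and a Nanog-GFP reporter, into which a doxycycline-inducible piggyBac cassette with Oct3/4, Klf4, c-Myc, Sox2 and an mCherry reporter had been brought. The low-KLF4 cassette (OKMS) carries the short Klf4 cDNA and the high-KLF4 cassette (OK+9MS) the long one. All of these cells received 1 µg/mL doxycycline, and mCherry+ cells were sorted on days 2, 4, 8 and 18, with 2 arrays per cassette on day 8 and 1 on each other day. The iPSC groups were clones A7 and A9 for low-KLF4 and A10 and H10 for high-KLF4, each clone a single line. Reprogramming cultures were grown on gelatin-coated dishes and re-seeded on such dishes on day 8. Whether the iPSC or mESC cultures held feeder cells is not given in the sources used here. The references were 2 arrays of 1A2 mouse embryonic stem cells (mESCs), which also carry Nanog-GFP, and 2 of primary epidermal keratinocytes from pups at postnatal day 2. The keratinocytes were seeded on dishes coated with collagen I. No array of the starting MEFs was analysed here.

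A collagen molecule is a triple helix of 3 chains, so chains that assemble together are read together. Fibrillar collagens such as types I, III and V are laid down by fibroblasts and other mesenchymal cells as the tensile fibres of connective tissue. Type IV chains form the network of basement membranes under epithelia and around vessels, types XV and XVIII lie in or near that sheet, and type VI forms beaded filaments between it and the fibres. Loss of a mesenchymal programme is an early part of the reprogramming of fibroblasts, which is why matrix genes are of interest here.

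Reference promoters, from 250 bases before the RefSeq start to 50 after it, were available for 34 of the 43 genes in the GRCm38.p6 tables. Col1a2, the second chain of type I collagen, and Col10a1, the chain of type X collagen, are shown because Col1a2 had one of the widest ranges over the groups and Col10a1 the widest gap between the day 8 arrays. Col4a1 and Col4a2 are shown because these partner chains start 21 bases apart on opposite strands of chromosome 8. In Col1a2 (chr6:4505368-4505667, plus strand) capitals mark CCAAT read on either strand, once 109 bases before the start and once at base 1. In Col10a1 (chr10:34389731-34390030, plus strand) they mark TATAAA, which begins 32 bases before the start. In Col4a1 (chr8:11312777-11313076, minus strand) and Col4a2 (chr8:11312555-11312854, plus strand) they mark the 78 bases that both windows hold, each read on its own strand.
Col1a2: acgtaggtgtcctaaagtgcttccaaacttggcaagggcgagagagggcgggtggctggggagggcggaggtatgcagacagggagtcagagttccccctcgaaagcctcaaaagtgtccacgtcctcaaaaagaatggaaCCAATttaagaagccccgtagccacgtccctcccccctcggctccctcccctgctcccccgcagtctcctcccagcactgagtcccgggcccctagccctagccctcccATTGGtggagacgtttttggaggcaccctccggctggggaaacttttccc
Col10a1: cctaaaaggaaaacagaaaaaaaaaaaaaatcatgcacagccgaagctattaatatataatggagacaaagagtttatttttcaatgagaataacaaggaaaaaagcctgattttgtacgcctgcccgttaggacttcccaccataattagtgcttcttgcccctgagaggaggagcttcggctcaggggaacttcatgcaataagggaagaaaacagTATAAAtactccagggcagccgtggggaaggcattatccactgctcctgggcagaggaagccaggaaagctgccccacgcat
Col4a1: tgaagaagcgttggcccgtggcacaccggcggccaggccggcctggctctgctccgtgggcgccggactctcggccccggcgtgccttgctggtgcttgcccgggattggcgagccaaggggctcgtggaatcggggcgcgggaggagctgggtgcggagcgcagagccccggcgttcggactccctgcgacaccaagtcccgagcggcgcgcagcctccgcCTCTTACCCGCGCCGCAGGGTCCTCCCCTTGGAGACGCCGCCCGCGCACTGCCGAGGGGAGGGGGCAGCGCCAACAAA
Col4a2: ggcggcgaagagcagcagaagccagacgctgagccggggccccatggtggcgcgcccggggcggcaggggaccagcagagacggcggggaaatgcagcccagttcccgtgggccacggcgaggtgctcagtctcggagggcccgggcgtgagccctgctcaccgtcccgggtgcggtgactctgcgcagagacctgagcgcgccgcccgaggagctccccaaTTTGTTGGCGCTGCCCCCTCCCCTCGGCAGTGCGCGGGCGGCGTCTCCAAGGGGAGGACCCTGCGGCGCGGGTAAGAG
CCAAT, on either strand, was in the windows of 12 of the 34 genes, and in 37.41% of all 32851 windows of 300 bases. TATAAA, on either strand, was in the windows of 4 of the 34 genes, and in 13.62% of all windows. These matches describe the letters only. RefSeq places Col6a1 and Col6a2 85.2 kb apart on chromosome 10, Col6a1 and Col18a1 326.1 kb apart, and Col3a1 and Col5a2 24.6 kb apart on chromosome 1.

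Signals are linear intensities after RMA, which corrects background, equalises the distribution of all arrays and summarises the probes of each transcript. Array medians lay between 139 and 162, and no detection call came with the values, so a level near those medians cannot be called present or absent. Log2 differences within a gene are compared below, and the signal of a gene is not set against that of another, since probes differ in brightness. Tests are limma with Benjamini-Hochberg adjustment over 23410 probes, and a gene is said to be called at an adjusted p under 0.05. The arrays of a group were taken as separate samples, and for the clones the spread is between lines. Where a group has 1 array, its spread is that estimated from the 6 groups with 2.

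Of the 43 collagen genes, 17 had a highest group mean at least 2-fold above the lowest over the 12 groups, a share of 39.5% beside 40.5% of all tested probes, so the count is near the background. They were 6 of the 11 fibrillar, 4 of the 8 basement membrane and 7 of the 24 other chains. The widest ranges were those of Col1a1 with 21.9-fold, Col1a2 with 21.4-fold and Col6a3 with 19.5-fold. The other 26 ranged by at most 1.91-fold, Col7a1 of the anchoring fibrils and the type IX chains Col9a1, Col9a2 and Col9a3 of cartilage fibrils among them. Of the 17, 15 had their highest group mean in sorted mCherry+ cells and 2, Col18a1 and Col26a1, in keratinocytes. Of all tested probes with such a range, 45.2% had it in sorted cells, which make up 8 of the 12 groups, and 22.7% in keratinocytes.

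**Figure D1:**
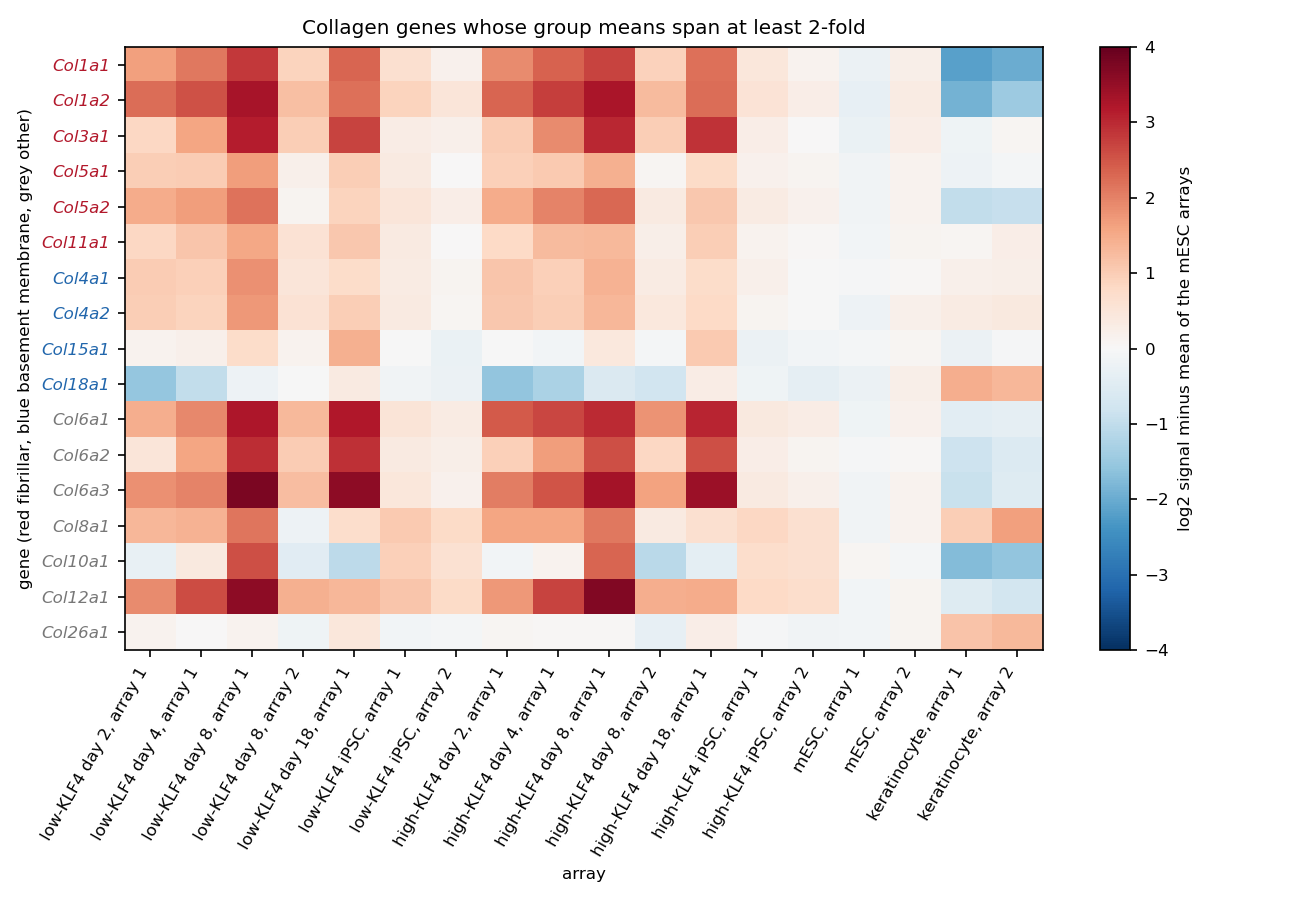
Log2 signal of the 17 collagen genes whose group means span at least 2-fold, each minus its mean over the mESC arrays, with genes in rows and the 18 arrays in columns. Most rows are red in the sorted cells, and mESCs are near 0 because they are the reference. Array 1 of day 8 is redder than array 2 in both cassettes, and Col18a1 runs from blue on day 2 to red in keratinocytes.

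The type I chains were bright in sorted cells of both cassettes and dim in keratinocytes. The signal of Col1a1 was 3048 in low-KLF4 and 3634 in high-KLF4 at day 2, 4178 and 5024 at day 4, and 4898 and 4488 at day 18. On day 8 it had 6952 and 1783 on the low-KLF4 arrays and 6367 and 1852 on the high-KLF4 arrays. The clones lay between 1061 and 1520, the mESC arrays at 827 and 1141, and the keratinocyte arrays at 215 and 245. All 10 mCherry+ arrays were thus above all 4 clones, and the clones overlapped with neither keratinocyte array. Col1a2 followed it, with 2482 and 2692 on day 2, 3108 and 3590 on day 4, 5198 and 1216 on the day 8 arrays of low-KLF4, and 5120 and 1266 on those of high-KLF4. It had 2443 and 2491 on day 18, 638 to 989 in the clones, 426 and 665 in mESCs, and 145 and 193 in keratinocytes. Over the 12 group means the log2 levels of these chains of 1 molecule had a Pearson r of 0.99, a description of groups that share arrays, cells and normalization.

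The type III chain and the type VI chains Col6a1, Col6a2 and Col6a3 had more signal on day 18 than on day 2 in both cassettes. Col3a1, the chain of the type III fibrils that accompany type I, went from 449 in low-KLF4 and 501 in high-KLF4 on day 2 to 744 and 922 on day 4 and then to 1635 and 1875 on day 18. On day 8 it had 2185 and 498 in low-KLF4 and 2026 and 493 in high-KLF4, and its clones lay between 255 and 305. All 10 mCherry+ arrays were above all 4 clones. Col6a3, the largest chain of type VI, went from 636 and 733 on day 2 to 2148 and 1927 on day 18, against 201 to 245 in the clones and 96.2 and 126 in keratinocytes. On day 8 it had 2410 and 422 in low-KLF4 and 1805 and 542 in high-KLF4. The partner chains ran alike. Col6a1 had 736 and 1460 on day 2, 1016 and 1722 on day 4, then 2475 and 2229 on day 18. Col6a2 had 445 and 616 on day 2, 952 and 1019 on day 4, then 2391 and 1917 on day 18. For each of the 3 chains both day 18 arrays exceeded both day 4 arrays. Pearson r over the 12 group means was 0.94 to 0.99 among these 3 chains. It was -0.37 between Col6a1 and its chromosome 10 neighbour Col18a1, and 0.63 between Col3a1 and its neighbour Col5a2.

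Col12a1, a fibril-associated chain found on type I fibrils, and Col5a2, a type V chain of the fibril core, had less signal on day 18 than on day 4. Col12a1 had 1422 and 1256 on day 2, 2332 and 2462 on day 4, then 959 and 1066 on day 18, with 4532 and 1010 on the day 8 arrays of low-KLF4 and 4934 and 1042 on those of high-KLF4. Col5a2 had 458 and 462 on day 2, 524 and 658 on day 4, then 305 and 347 on day 18, with 746 and 178 on the day 8 arrays of low-KLF4 and 818 and 209 on those of high-KLF4. The day 4 signal of each gene was above its day 2 and day 18 signals in both cassettes, with 1 array per point, while the day 8 arrays lay on either side of it.

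Basement membrane chains did not run together. Col4a1 and Col4a2, the chains of the ubiquitous type IV network, had a Pearson r of 0.98 over the groups and ranges of 2.22-fold and 2.23-fold. Col4a1 had 456 and 492 on day 2, 439 and 439 on day 4, 380 and 381 on day 18, and 228 to 287 in the clones, and on day 8 it had 812 and 317 in low-KLF4 and 599 and 289 in high-KLF4. All of its mCherry+ arrays were above all 4 clones. The kidney, lung and eye chains Col4a3 and Col4a4 ranged over 1.41-fold and 1.30-fold, and the X-linked Col4a5 over 1.91-fold. Col18a1, whose C-terminal fragment is endostatin, and Col15a1, its close relative, followed another course, given below with day 18.

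**Figure D2:**
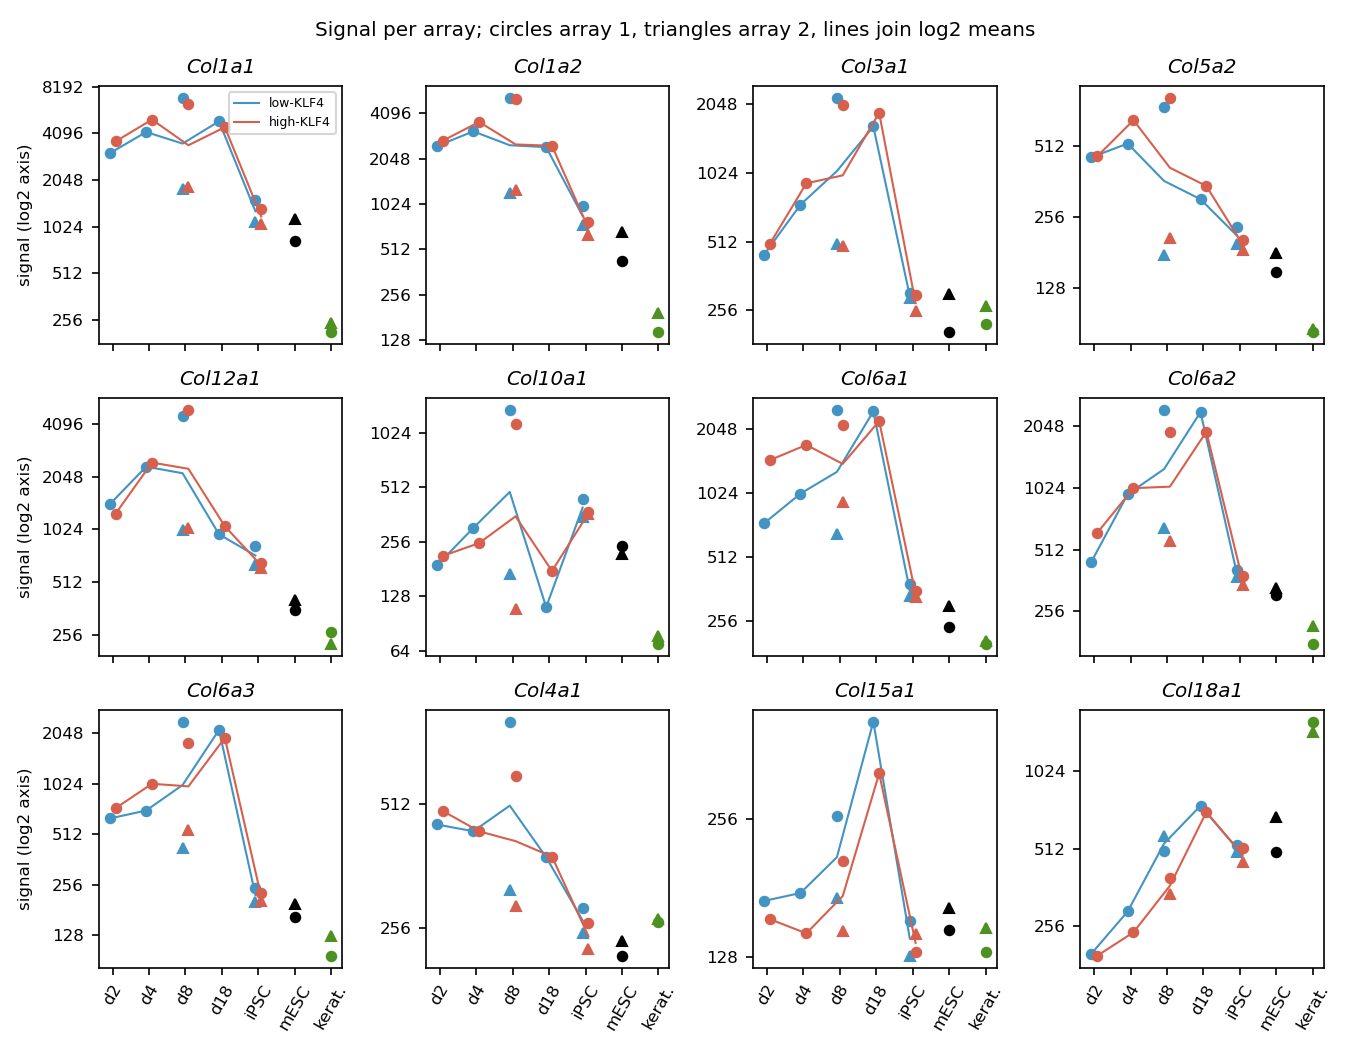
Signal of 12 collagen genes on each array (log2 axis) for low-KLF4 (blue) and high-KLF4 (red) by day and in iPSC clones, with mESCs in black and keratinocytes in green. Circles are array or clone 1 and triangles array or clone 2, and lines join log2 means. The colours run together in most panels, while circles and triangles on day 8 lie far apart for all but Col18a1 and Col15a1.

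The day 8 arrays set how precisely any of this can be tested. Col10a1, the chain of the hypertrophic cartilage matrix, had 1372 on array 1 and 170 on array 2 of low-KLF4, and 1145 and 109 on those of high-KLF4. The same gene lay between 190 and 305 on days 2 and 4, at 112 and 177 on day 18 and between 352 and 443 in the clones. Only array 1 of day 8 was thus above the clones. In all, 42 of the 43 genes were lower on array 2 than on array 1 in both cassettes, beside 35.3% of probes, and the other one was Col18a1. In low-KLF4 13 members were at least 2-fold lower on array 2, beside 3.41% of probes, and in high-KLF4 also 13, beside 2.34%. No member was 2-fold higher on array 2, beside 1.92% and 2.05%. For 12 of them the 2-fold difference was seen in both cassettes, beside 1.83%. These were Col1a1, Col1a2, Col3a1, Col5a1, Col5a2, Col4a1, Col6a1, Col6a2, Col6a3, Col8a1, Col10a1 and Col12a1.

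The gap was widest in the fibrillar class. Its median was -0.997 on the log2 scale in low-KLF4 and -1.08 in high-KLF4, against -0.32 and -0.45 for basement membrane chains and -0.38 and -0.49 for the others, with 0.01 in low-KLF4 and 0.00 in high-KLF4 for all tested probes. Across the 43 genes the gaps of the cassettes had a Pearson r of 0.96, and across all tested probes 0.74. The highest of the 18 arrays was an array 1 of day 8 for 25 members, beside 5.89% of probes.

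Fibroblast markers moved with this gap. All 19 measured ones, such as Thy1, Pdgfrb and Prrx1, were lower on array 2 in both cassettes, and their summed signal was 74776 and 33098 on the low-KLF4 arrays and 71187 and 36026 on the high-KLF4 arrays. It was 35916 to 43358 in the clones, 29575 and 29676 in mESCs, and 10206 and 12093 in keratinocytes. Such a sum is weighted to the brightest probes, here Vim, Fn1 and Sparc. Of 12 chondrocyte markers, 7 were lower on array 2 in both cassettes, beside 35.3% of probes. Comp of that list had 184 and 96 on the low-KLF4 arrays and 209 and 108 on the high-KLF4 arrays. Acan, the main cartilage proteoglycan, had 76 and 78 on the low-KLF4 arrays and 75 and 95 on the high-KLF4 arrays, all below the array medians. The part of fibroblasts in the sorted cells was not tested, and in such bulk samples fewer cells of a type and less RNA per cell cannot be told apart. The study's methods speak of independent experiments for day 8 and name no batch.

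**Figure D3:**
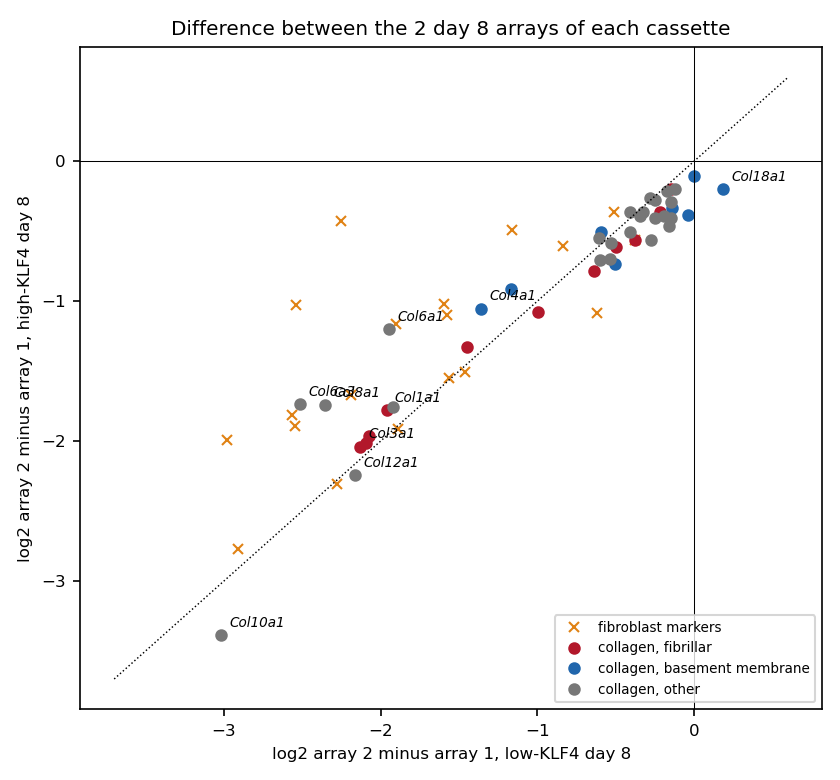
Log2 difference between array 2 and array 1 of day 8 for each of the 43 collagen genes (dots by class) and 19 fibroblast markers (crosses), low-KLF4 on the x axis and high-KLF4 on the y axis, with the dotted line of equality. All dots but Col18a1 lie below 0 on both axes and Col10a1 lies farthest out, at -3.02 and -3.39.

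The first question of the design is whether the 2 cassettes differed in collagen transcripts. On day 8 limma called 0 of the 43 members higher in high-KLF4, beside 2.71% of probes, and 0 lower, beside 1.29%. At an unadjusted p under 0.05, which 16.2% of probes passed, there was 1, Col18a1, lower in high-KLF4 by -0.55 (SE 0.16, adjusted p 0.109, limma) with 394 and 342 against 503 and 572. The t-test of the methods called 0 members, unadjusted or adjusted, and the fit of the 4 day 8 arrays alone called 0. Both rest on the same 4 arrays and hold the gap between arrays in their error. These counts are thus no further evidence that the cassettes were alike. The members' median difference was -0.10, beside -0.03 for all tested probes, and no member differed by more than 0.55. For 29 members the 95% interval lay within 2-fold either way, and for the other 14 it reached 2-fold.

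Within arrays of the same number the cassettes were also compared chain by chain. High-KLF4 minus low-KLF4 was -0.13 for Col1a1 on arrays 1 and 0.05 on arrays 2, and -0.02 and 0.06 for Col1a2. For Col6a1 it was -0.25 and 0.50, and for Col6a3 -0.42 and 0.36, so the direction differed between the array numbers. Both comparisons were positive for 3 members, Col5a2, Col12a1 and Col14a1, beside 30.2% of probes, and both negative for 27, beside 38.8%. The 95% interval of the tested difference was -1.60 to 1.53 for Col1a1 and -1.71 to 1.75 for Col1a2, wide because it holds the gap between arrays. In this fit a 2-fold difference in those chains was not detectable.

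With each day as its own level, the cassettes were compared over all 10 mCherry+ arrays. The fit called 0 members higher, beside 0.158% of probes, and 0 lower, beside 0.00427%, with 4 members at an unadjusted p under 0.05, beside 15.9%. All 8 basement membrane chains were negative, where 42.7% of all tested probes were positive. Most fibrillar and most other chains were negative too. The class median was -0.12, beside -0.11 for fibrillar chains and -0.02 for all tested probes. The largest difference was that of Col6a1, 0.37 (SE 0.42, 95% interval -0.62 to 1.36). The interaction of cassette and stage, which asks whether the difference of day 8 differs from that of the clones, called 0 members higher, beside 0.671% of probes, and 0 lower, beside 0.154%, and 0 had an unadjusted p under 0.05, beside 10.3%.

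Days 2, 4 and 18 had 1 array per cassette and therefore no test of the cassettes. On day 2, 0 members were 2-fold higher in high-KLF4, beside 1.00% of probes, and 0 lower, beside 0.0641%. On day 4 the counts were 0 and 0, beside 1.64% and 0.641%, and on day 18 also 0 and 0, beside 0.867% and 0.0940%. The member nearest to 2-fold was Col6a1 on day 2, 1.98-fold higher in high-KLF4 at 1460 against 736, and on day 4 it was 1.69-fold higher at 1722 against 1016. On day 18 it was lower in high-KLF4, at 2229 against 2475.

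**Figure D4:**
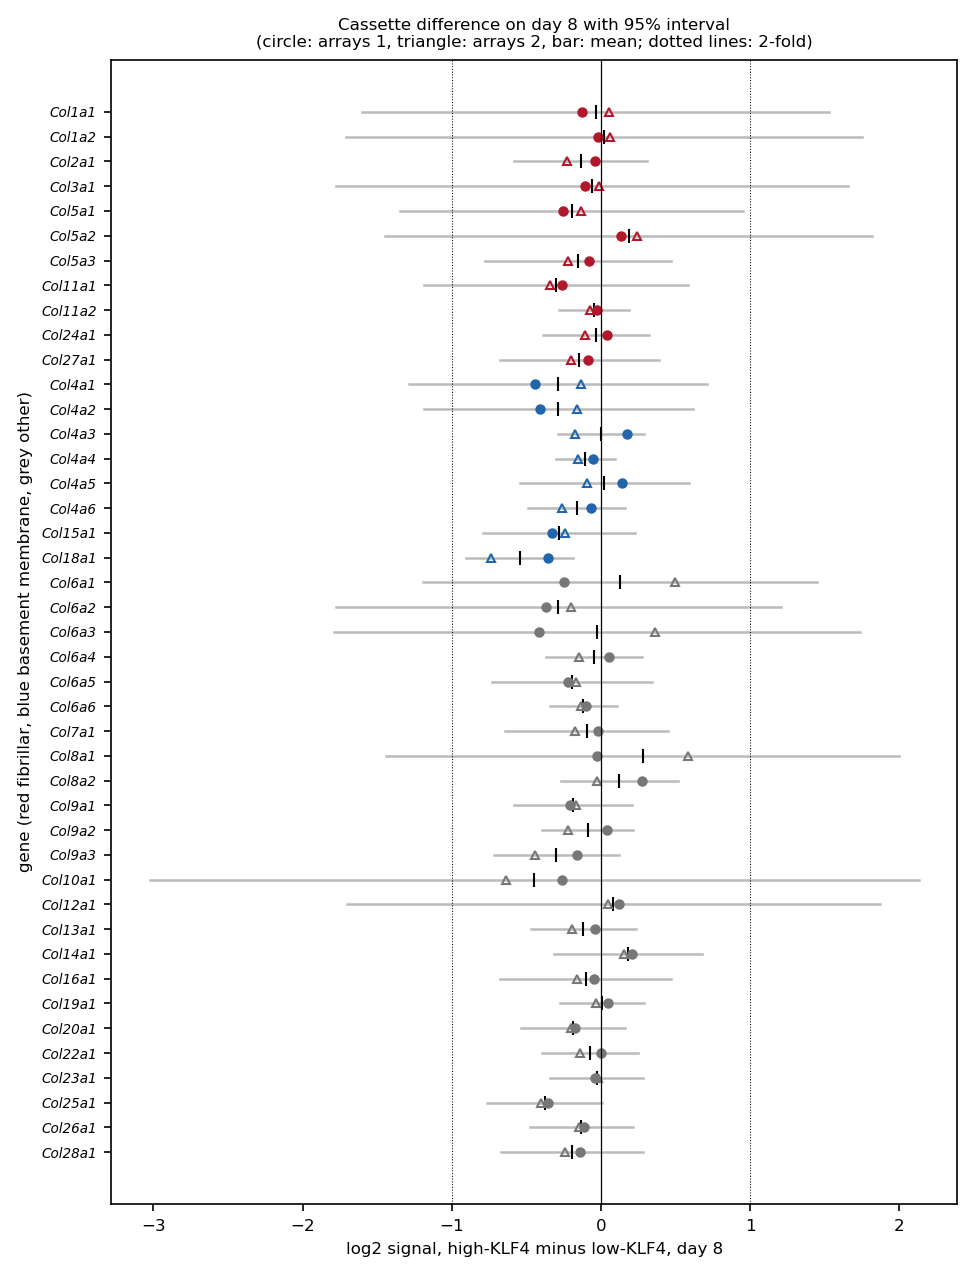
High-KLF4 minus low-KLF4 log2 signal on day 8 for the 43 collagen genes, as the difference of arrays 1 (circles), of arrays 2 (triangles) and their mean (bar) with its 95% limma interval (grey line), dotted lines marking 2-fold. No circle or triangle reaches 2-fold, and the intervals of Col10a1, Col1a1, Col1a2, Col3a1 and Col12a1 extend past it on both sides.

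Among the genes that process or bind collagen a few were called between the cassettes. The lists held 55 genes, of which 51 were measured: hydroxylases, folding and export factors, processing proteases, cross-linking enzymes, fibril-associated proteoglycans and receptors. On day 8, 3 of the 51 were higher in high-KLF4 and 0 lower, against the 2.71% and 1.29% of all probes given above. They were Tgm2, the tissue transglutaminase, by 2.38 (SE 0.29, adjusted p 0.00401), Prelp, a leucine-rich proteoglycan, by 2.17 (SE 0.24, adjusted p 0.00235), and Adamts3, a protease of procollagen N-propeptides, by 0.82 (SE 0.13, adjusted p 0.0119).

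Tgm2 had 684 and 1317 in low-KLF4 against 4008 and 6051 in high-KLF4 on day 8. Prelp had 840 and 489 against 2735 and 3023. On day 2, with 1 array each, Tgm2 had 668 against 3851 and Prelp 288 against 2009. All high-KLF4 arrays of these genes on days 2, 4 and 8 were above all low-KLF4 arrays of those days, which was not so for any type I or type VI chain on day 8. On day 18 the ratio was 1.90 for Tgm2, at 2442 against 1284, and 1.42 for Prelp, at 676 against 476.

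Dcn, or decorin, the proteoglycan that coats type I fibrils, is named after its values were seen. It had 437 in low-KLF4 and 5461 in high-KLF4 on day 2, a ratio of 12.5, and 612 and 6211 on day 4, but 3245 and 4514 on day 18, a ratio of 1.39. On day 8 it had 3216 and 1112 against 5407 and 4232, and its day 8 difference of 1.34 (SE 0.41, adjusted p 0.128, limma) was not called. In the fit over all days 0 of the 51 were called in either direction, and 8 had an unadjusted p under 0.05, beside 15.9% of probes. Col1a1 on the same day 2 arrays had 3048 and 3634.

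Day 2 cells were compared with the iPSC clones to ask what the start and the end of the route had apart. Of the 43 genes, 14 were called higher on day 2, beside 25.6% of probes, a share of members not far from that of all probes, and 1 was lower, beside 17.5%. The members' median was 0.44, beside 0.10 for all tested probes, and 41 of 43 were above 0, beside 63.0% of probes. The largest called rise was Col6a1, 736 and 1460 against 331 to 383 in the clones, by 1.57 (SE 0.50, adjusted p 0.0345). The next were Col4a5 by 0.85 (SE 0.21) and Col16a1, a fibril-associated chain, by 0.72 (SE 0.22), and the other 11 differed by 0.27 to 0.60. Col4a5 had 206 and 189 against 106 to 116.

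The largest differences on day 2 were not called. Col1a2 differed by 1.73 (SE 0.65, adjusted p 0.0614) and Col1a1 by 1.42 (SE 0.59, adjusted p 0.0828), although neither gene's day 2 arrays overlapped with the clones. Their errors hold the day 8 gap. The gene called lower was Col18a1, with 200 and 196 on day 2 against 455 to 530 in the clones, a difference of -1.33 (SE 0.14, adjusted p 0.000179). Without clone A7, A9, A10 or H10 in turn, 9, 3, 5 and 4 members were called higher, and 1 lower each time. The call of Col6a1 was lost in each case (adjusted p 0.0637 to 0.0846, limma), while those of Col4a5 and Col18a1 were not. Among fibroblast markers 3 of 19 were higher on day 2, beside 25.6% of probes, and all 10 pluripotency markers were lower, beside 17.5%. Of the 51 collagen-handling genes 22 were higher and 2 lower, led by Loxl4, a lysyl oxidase that cross-links collagen, with 3.23 (SE 0.24), and Tgm2 with 2.90 (SE 0.25). The lower ones were Tmem38b and Mia3.

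On day 8, high-KLF4 cells were compared with high-KLF4 clones and low-KLF4 cells with low-KLF4 clones. In high-KLF4, 2 members were higher, beside 13.5% of probes, and 0 lower, beside 14.7%. They were Col6a1, with 2126 and 924 against 354 and 331, a difference of 2.03 (SE 0.58, adjusted p 0.0304), and Col8a2, a short-chain network collagen, with 145 and 105 against 77 and 91, a difference of 0.56 (SE 0.17, adjusted p 0.0407). In low-KLF4 limma called 0 higher, beside 8.43% of probes, and 0 lower, beside 10.8%, while 17 had an unadjusted p under 0.05, beside 34.2% of probes, and all 43 differences were above 0, beside 59.2%. Col6a3 there had 2410 and 422 against 245 and 201, a difference of 2.18 (SE 0.77, adjusted p 0.0834).

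These counts rest on single arrays. No share of all probes stands beside the counts of the refits, so they do not set collagen genes apart from other probes. Without array 2 of high-KLF4 day 8 there were 16 members higher in that comparison, and without array 1, clone A10 or clone H10 there were 0. Without array 2 of low-KLF4 day 8 there were 12 higher, and without array 1 there were 0. With array 2 of both cassettes left out, more members were called higher in each comparison than in the full fit. With array 1 of both left out, more were called in each direction. The members' median was 0.31 in high-KLF4 and 0.42 in low-KLF4, beside 0.04 and 0.06 for all tested probes. Of the 51 collagen-handling genes, 18 were higher and 2 lower in high-KLF4, and 11 higher and 0 lower in low-KLF4.

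Sorted cells of day 18, late in the doxycycline course, were compared with the same clones. Of the 43 genes 15 were higher, beside 13.3% of probes, and 0 lower, beside 17.1%. They were 4 fibrillar, 3 basement membrane and 8 other chains. The medians were 0.67, 0.44 and 0.37 in these classes, beside 0.04 for all tested probes. Col6a3 led with 3.21 (SE 0.67, adjusted p 0.00784), then Col6a1 with 2.75 (SE 0.50, adjusted p 0.00431), Col3a1 with 2.61 (SE 0.65, adjusted p 0.0170) and Col6a2 with 2.51 (SE 0.56, adjusted p 0.0112). Col1a1 followed with 1.92 (SE 0.59, adjusted p 0.0400), while Col1a2, with 1.67 (SE 0.65, adjusted p 0.0895), was not called.

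Col15a1 had 419 in low-KLF4 and 322 in high-KLF4 on day 18 against 129 to 154 in the clones, a difference of 1.40 (SE 0.19, adjusted p 0.00114). Col18a1 had 752 and 711 against 455 to 530, a difference of 0.55 (SE 0.14, adjusted p 0.0167). In neither gene did the groups overlap. The remaining 8 called chains, Col2a1, Col4a4, Col6a6, Col9a3, Col20a1, Col22a1, Col24a1 and Col26a1, differed by 0.23 to 0.67. Without clone A7, A9, A10 or H10 in turn, 11, 6, 8 and 6 members were called. The calls of Col6a1, Col6a2, Col6a3, Col3a1 and Col15a1 held each time, and that of Col1a1 was lost each time (adjusted p 0.0682 to 0.105, limma).

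Markers of other cell types differed on day 18 too. Of 12 primitive and parietal endoderm markers 9 were higher than in the clones, among them Pdgfra, which fibroblasts also express, with 1927 and 1778 against 100 to 113, Foxa2 with 2.02 (SE 0.13) and Sox17 with 1.82 (SE 0.07). The summed signal of that list was 22660 and 22252 on day 18 and 11616 to 13416 in the clones. Sparc, which is also in the fibroblast list, made up much of it, with 10540 and 10290 on day 18 and 6854 to 8400 in the clones. Of 19 fibroblast markers 2 were higher, beside 13.3% of probes, Pdgfra being 1 of them. The summed signal of that list was 54769 and 50079 on day 18. Of 9 endothelial markers 2 were higher, led by Cdh5 with 1410 and 551 against 70 to 85, and 3 were lower, Pecam1 among them, and 9 of 10 pluripotency markers were lower. No detection call came with these values, so a marker near the array medians cannot be called present or absent. The part of such cells in the collagen differences was not tested. Collagen-handling genes were higher in 15 cases of 51 and lower in 2, led by the proteoglycans Lum, or lumican, with 5.03 (SE 0.79) and Dcn with 3.68 (SE 0.35).

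Within the sorted cells, day 18 minus day 2 asked what changed in both cassettes over time. Limma called 2 members higher, beside 5.45% of probes, and 0 lower, beside 8.56%, and both are basement membrane chains. Col18a1 was at 200 and 196 on day 2, at 292 and 242 on day 4 and then at 752 and 711 on day 18, a rise of 1.89 (SE 0.17, adjusted p 0.00136). Col15a1 rose by 1.18 (SE 0.22, adjusted p 0.0170), from 170 and 155. In the same comparison 6 of 12 endoderm markers were higher, led by Pdgfra with 3.22 (SE 0.72) and Gata4 with 2.18 (SE 0.34). Of 9 endothelial markers 2 were higher, Cdh5 with 3.14 (SE 0.32) and Pecam1 with 1.40 (SE 0.23). Tek with -2.30 (SE 0.24) and Emcn with -1.35 (SE 0.22) were lower. Pecam1 had 257 and 176 on day 18 but 618 to 757 in the clones. All 10 pluripotency markers were higher as well. The part of such cells in the rise of both chains was not tested. Col18a1 and Col15a1 rose in 2 of 2 cassettes. Col6a2, with 2.03 (SE 0.72, adjusted p 0.114), and Col3a1, with 1.88 (SE 0.79, adjusted p 0.172), had differences as large and were not called.

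With array 1 or array 2 of both cassettes on day 8 left out, more members were called in each direction than in the full fit. No share of all probes stands beside those refits. The members' median was -0.05, beside -0.07 for all tested probes. Type I chains were not called between these days, with differences of 0.49 for Col1a1 (95% interval -1.19 to 2.18) and of -0.07 for Col1a2 (95% interval -1.90 to 1.77). Among the 51 collagen-handling genes 2 were higher, Lum with 4.32 (SE 1.00) and the prolyl hydroxylase subunit P4ha1 with 0.76 (SE 0.19), and 2 were lower, Pcolce2, an enhancer of procollagen processing, with -2.21 (SE 0.37) and Loxl4 with -2.20 (SE 0.27).

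The clones were compared with mESCs to ask whether collagen transcripts had returned to the pluripotent level. Limma called 0 members higher, beside 2.02% of probes, and 0 lower, beside 2.28%, with 2 at an unadjusted p under 0.05, beside 18.1%. The members' median was -0.09, beside -0.02 for all tested probes. For 31 members the 95% interval lay within 2-fold, and for 12 it reached 2-fold. All 4 clones were above both mESC arrays in 7 members, beside 19.6% of probes, and below both in 10, beside 22.4%. Both counts are near the share of all probes. The 7 were Col5a2, Col6a1, Col6a2, Col6a3, Col8a1, Col10a1 and Col12a1, and the 10 were Col4a4, Col4a6, Col6a4, Col6a5, Col9a3, Col13a1, Col16a1, Col20a1, Col24a1 and Col25a1.

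Col12a1 had 615 to 820 in the clones and 355 and 406 in mESCs, a difference of 0.84 (SE 0.67, adjusted p 0.589). Col8a1, a chain of the network under corneal and vascular endothelium, had 874 to 1166 against 509 and 619, a difference of 0.82 (SE 0.65, adjusted p 0.583). Col10a1 had 352 to 443 against 218 and 243. All 19 fibroblast markers had a positive difference between clones and mESCs, beside 44.4% of probes. Their median was 0.34 and none was called, and their part in these values was not tested. No collagen-handling gene of the 51 was called by limma, so 0 in each direction, and 5 had an unadjusted p under 0.05, beside 18.1% of probes.

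**Figure D5:**
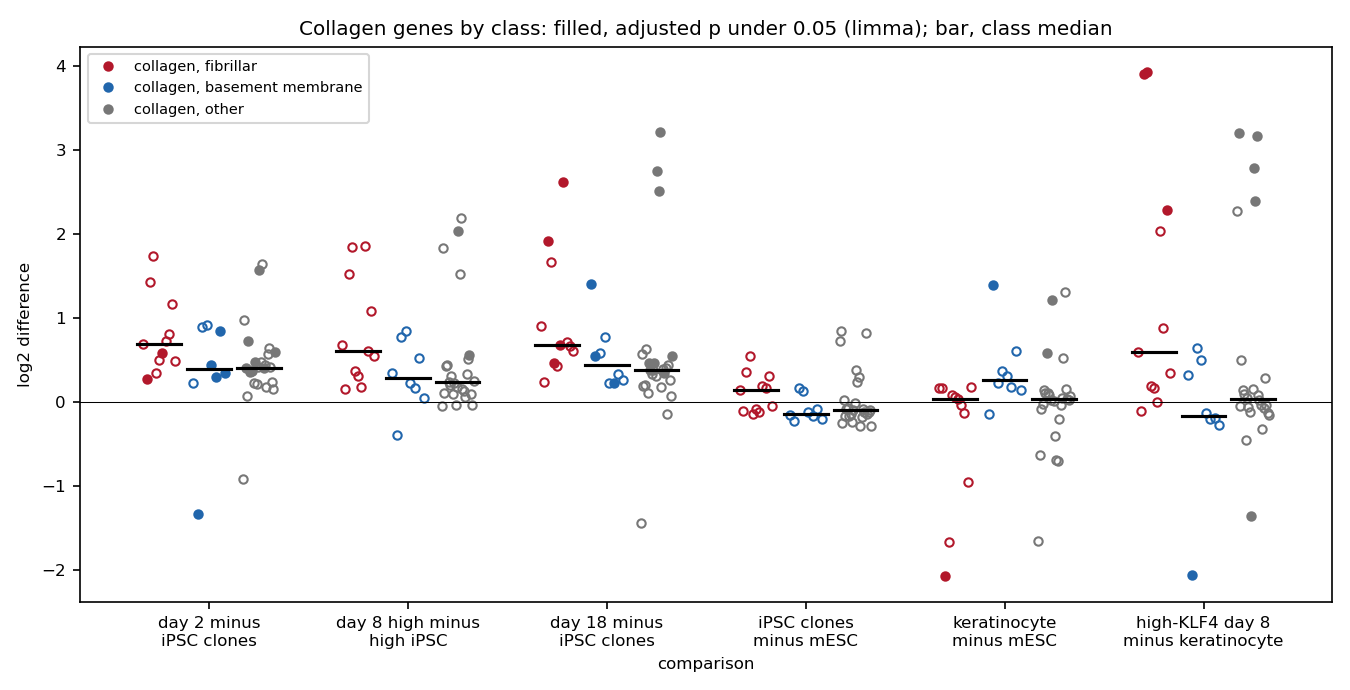
Log2 differences of the 43 collagen genes in 6 comparisons, by class, with filled points for adjusted p under 0.05 and bars for class medians. Day 18 has filled points up to 3.21, the comparison of clones with mESCs has none, and Col18a1 is the lowest point on day 2 (-1.33) and against keratinocytes (-2.06).

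Keratinocytes served as the epithelial reference. Against mESCs 3 members were higher, beside 17.7% of probes, and 1 lower, beside 20.4%. Col18a1 had 1599 and 1460 in keratinocytes and 497 and 683 in mESCs, a difference of 1.39 (SE 0.16, adjusted p 0.000185). Col26a1, also called Emid2, had 466 and 516 against 198 and 226, a difference of 1.22 (SE 0.15, adjusted p 0.000308). Col20a1, a fibril-associated chain, had 203 and 153 against 115 and 120, a difference of 0.58 (SE 0.15, adjusted p 0.0158). In none of the 3 did the groups overlap. The call of Col20a1 was lost without keratinocyte array 1 or either mESC array (adjusted p 0.0556 to 0.110, limma).

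Col1a1 was the member called lower, with 215 and 245 against 827 and 1141, a difference of -2.08 (SE 0.68, adjusted p 0.0417). The call was lost without any 1 of the 4 arrays compared (adjusted p 0.0985 to 0.173 in limma) and after a second quantile normalization (adjusted p 0.0536), with 0 members lower then and 6 higher. Col7a1, the anchoring fibril chain that keratinocytes make in skin, had 304 and 279 against 195 and 209, a difference of 0.53 (SE 0.24, adjusted p 0.125). Col8a1 had 1121 and 1738 against 509 and 619, which do not overlap, a difference of 1.31 (SE 0.75, adjusted p 0.223). Fibroblast markers were lower too, 7 of 19, and all 11 measured keratinocyte markers were higher. Of the 51 collagen-handling genes 8 were higher and 13 lower, with Itga2, the collagen-binding integrin of epithelia, higher by 4.21 (SE 0.34) and Ddr1, the epithelial collagen receptor kinase, by 2.48 (SE 0.18).

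High-KLF4 cells of day 8, in which 6 of 11 keratinocyte markers were higher than in low-KLF4, were compared with keratinocytes. Of the 43 genes 7 were higher than in keratinocytes, beside 13.1% of probes, and 2 lower, beside 11.4%. The members' median was 0.09, beside 0.00 for all tested probes. Col1a2 had 5120 and 1266 against 145 and 193, a difference of 3.93 (SE 0.75, adjusted p 0.00624). Col1a1 had 6367 and 1852 against 215 and 245, a difference of 3.90 (SE 0.68, adjusted p 0.00399). Col12a1, Col6a3, Col6a1, Col6a2 and Col5a2 followed with 3.21, 3.17, 2.79, 2.39 and 2.28 and SEs of 0.58 to 0.78.

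Array 2 of day 8, which entered these calls, was above both keratinocyte arrays in all 7, with 209 against 84 and 87 for Col5a2. Both lower genes were those that keratinocytes had above mESCs, Col18a1 with 394 and 342 against 1599 and 1460, a difference of -2.06 (SE 0.16, adjusted p 4.91e-05), and Col26a1 with 217 and 169 against 466 and 516, a difference of -1.36 (SE 0.15, adjusted p 0.000387). This comparison and the previous one share the keratinocyte arrays. Without array 1 of high-KLF4 day 8 there were 3 members higher, without array 2 there were 10, and without keratinocyte array 1 or 2 there were 2 and 3. The calls of Col1a1, Col1a2, Col18a1 and Col26a1 held in all of these. With array 2 of both cassettes left out more members were called higher, and with array 1 of both left out more were called lower. A second quantile normalization gave 5 lower. No share of all probes stands beside the counts of these refits.

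Of 19 fibroblast markers 12 were higher than in keratinocytes, led by Prrx1 with 5.48 (SE 0.60), and 8 of 11 keratinocyte markers were lower, with Krt14 by -1.12 (SE 0.18). In the 51 collagen-handling genes 25 were higher and 5 lower. All 5 cross-linking enzymes measured were higher, with Tgm2 at 5.11 (SE 0.29) and Lox, the first lysyl oxidase, at 4.44 (SE 0.66). So were 7 of 8 proteoglycans, with Dcn at 5.71 (SE 0.41) and Bgn, or biglycan, at 5.42 (SE 0.28). The lower ones included Itga2 with -3.24 (SE 0.34) and Ddr1 with -1.63 (SE 0.18).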

How the data were processed

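RNA of 18 mouse samples had been hybridised to Affymetrix Mouse Gene 1.0 ST arrays. The deposited values are intensities on a linear scale that the authors made with RMA in GeneSpring (background correction, quantile normalization and a summary per transcript cluster), so a change shared by most transcripts would be removed from them. They run from 20.2 to 19539, and no detection call is given, so the number of arrays limits precision.

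Of 28853 probes, 23410 with at least 1 gene symbol in the platform annotation were tested, 21789 of them with 1 symbol and 1621 with several, and 5443 had none. Log2 of each value entered a limma 3.58.1 fit (R 4.3.3) of all 18 arrays in 12 groups, with 6 residual and 2.25 prior degrees of freedom, for 9 contrasts, and a fit of the 10 mCherry+ arrays with day and cassette as additive terms, with 5 residual degrees of freedom, for 2 contrasts. P-values are two-sided. Benjamini-Hochberg adjustment ran over all tested probes. Single arrays were compared at 2-fold with no test. The fit was tested on simulated data with known changes. Python 3.11.15, pandas 2.3.3, numpy 2.4.6 and matplotlib 3.10.9 served for descriptions and figures.

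Any collagen chain could be named. Given were chains called in a comparison, largest difference first, and partner chains. Of the other lists, genes with large called differences were named in some comparisons and not always in both directions. Some genes that were not called on day 8, such as Dcn, Comp and Acan, were named too. The genes, lists and tests were chosen with earlier results of these data known. List genes without a probe of their symbol, not analysed here, included Fkbp10, Adamts2, Loxl2 and Gp6 of the collagen-handling lists. Other settings tried were a filter that dropped the lowest 30% of probes by mean, quantile normalization of the log2 values once more, limma-trend, probe means per gene, adjustment over single-symbol probes alone, day 18 left out, type IV chains alone, a replicate block, the t-test of the methods and the 4 day 8 arrays alone. Arrays of the compared groups, or of day 8 in the fit over days, were also left out 1 at a time. Promoter sequences and positions are from RefSeq tables of GRCm38.p6. For a group with 1 array, the spread was borrowed from the 6 groups with 2.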

Additional observations from a re-analysis of the deposited data

How the results depend on the processing

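Differences of single called genes lost their call in 102 cases of a gene and an alternative, most of them with an array left out, and none changed sign. Counts of members called higher or lower moved with single arrays. No share of all probes stands beside the counts of these refits. Leaving out 1 array of the compared groups at a time gave 3 to 9 higher for day 2 and 6 to 11 for day 18, both against the clones. In these comparisons the arrays left out were those of clones, not those of day 8. The omission gave 0 to 16 for day 8 high-KLF4 and 0 to 12 for day 8 low-KLF4 against their clones. For high-KLF4 day 8 against keratinocytes it gave 2 to 10. It gave 0 lower for keratinocytes against mESCs in every case.

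Leaving out both day 8 arrays of a number was chosen after seeing the data. It leaves 1 array per cassette on day 8, and no share of all probes stands beside the counts. They do not set collagen genes apart from other probes. Without those numbered 1, there was 1 member lower in the day 8 comparison of the cassettes, 5 higher and 1 lower for high-KLF4 and 4 higher and 2 lower for low-KLF4 against their clones, 10 lower for high-KLF4 against keratinocytes, and 7 higher and 2 lower for day 18 against day 2. Without those numbered 2, there were 28 and 34 higher against the clones, 19 higher against keratinocytes, and 7 higher and 3 lower for day 18 against day 2. A second quantile normalization gave 5 lower for high-KLF4 day 8 against keratinocytes and 6 higher and 0 lower for keratinocytes against mESCs. It, limma-trend and the filter on dim probes gave 1 higher for low-KLF4 day 8 against its clones, in place of 0.

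The sources do not say that array numbers pair the samples, and there are only 2 pairs. Deviations of the day 8 arrays with the same number had a correlation of 0.74 over all probes between the cassettes, against -0.03 to 0.02 with mESC or keratinocyte arrays. With a replicate block on the day 8 arrays, day 18 against day 2 gave 7 members higher and 4 lower, and the cassette comparisons stayed at 0. In that day 8 comparison Col1a1 differed by -0.04 (SE 0.20) and Col1a2 by 0.02 (SE 0.23). The lowest adjusted p of a member was 0.0565 (limma), for Col18a1. With a replicate block on mESC and keratinocyte arrays, 3 members were higher and 0 lower. With types XV and XVIII left out, the median of the basement membrane class on day 2 against the clones was 0.64 in place of 0.39. Most errors hold the gap between the day 8 arrays, and chains near the array medians have no detection call, which limits what the calls can show.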
